A study of Mus musculus with 12 samples.

Results

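KO oocytes collected at the MII time were compared with WT oocytes at GVBD, to ask which of their transcripts still stood near the level of an earlier WT stage and which had already been cleared. The comparison took 4 of the 12 libraries of the series by their genotype and stage labels, KO MII replicates 1 and 2 and WT GVBD replicates 1 and 2. Each library held polyadenylated RNA from a small pool of denuded oocytes of 3-week-old C57BL/6 females primed with PMSG, a gonadotropin that drives follicle growth. KO females were Alkbh5-/-, with exon 1 and the start codon of *Alkbh5* removed in every cell of the animal, and WT females carried the intact gene. All oocytes entered culture in M16 medium at the germinal vesicle (GV) stage and were taken after 4 h as GVBD, when the nuclear envelope breaks down, or after 16 h as MII, the second meiotic arrest. Since the study describes KO oocytes as impaired in both GVBD and polar body release, KO MII names a time in culture and not a stage seen in each oocyte. Genotype and stage both differ between the 2 groups, so their parts in any difference cannot be told apart from this comparison alone. For that reason WT MII against WT GVBD and KO MII against WT MII are given beside it, and these comparisons share libraries with it.

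A growing oocyte stores maternal mRNA and then falls silent, so that transcript levels after meiotic resumption change by decay and by polyadenylation rather than by new transcription. The CCR4-NOT deadenylase, recruited by adaptors such as BTG4, shortens poly(A) tails and clears a large share of the store before MII, with transcripts for ribosomal and mitochondrial proteins among those known to be lost. ALKBH5 is an eraser of N6-methyladenosine (m6A), a mark read by YTHDF and IGF2BP proteins that can shorten or lengthen the life of an mRNA. Because selection is on polyadenylated RNA, a lower count can stand for a lost mRNA or for a shortened tail, and these cannot be told apart.

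Total counts were 34172356 and 34808493 in WT GVBD and 35878168 and 31402587 in KO MII, within the range of 28557742 to 40247810 over the 12 libraries. Synthetic ERCC RNA, added in equal amount to each tube, took 301307 and 456282 counts in WT GVBD and 403732 and 564099 in KO MII, and library sizes were set in proportion to it. Gene counts per ERCC count were 93.9 ± 26.3 (SD, n = 2) in WT GVBD, 71.3 ± 23.5 in KO MII and 60.1 ± 18.6 in WT MII, so the spread between replicates was wide. KO MII replicate 2 had 54.7 gene counts per ERCC count against 87.9 in replicate 1, and 19837 genes detected, the lowest number of the 12 libraries. *Alkbh5* received 10181 and 5434 counts in WT GVBD and 94 and 71 in KO MII. All 10 oocyte markers were detected in every library, with summed spike-in scaled counts (counts divided by the relative ERCC total of the library) of 517287 and 466662 in WT GVBD and 763847 and 549803 in KO MII. Cumulus and granulosa cell markers summed to 2061 and 1706 in WT GVBD and to 2234 and 1966 in KO MII.

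Markers of blood, endothelial and muscle cells, with 1 keratin gene among them, differed more. They summed to 153654 and 95730 scaled counts in WT GVBD, where hemoglobin genes gave most of the sum, to 36541 in KO MII replicate 1 and to 2392 in KO MII replicate 2. Of these 20 markers 12 (60%) were called lower in KO MII than in WT GVBD, against 7.3% of all genes tested. Their median log2 fold change was -3.78, against -0.82 over all genes, or -3.66 with genes absent from a whole group set at their bound. Among the defining markers *Krt14*, *Tnnt2*, *Actc1*, *Ankrd1* and *Cdh5* were at 0 in both KO MII libraries. They were tested only through their WT GVBD counts and could only come out lower. None of the 20 was at 0 in both WT GVBD libraries. In WT MII the list summed to 8780 and 4322. The part of such RNA in the results was not tested.

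**Figure D1:**
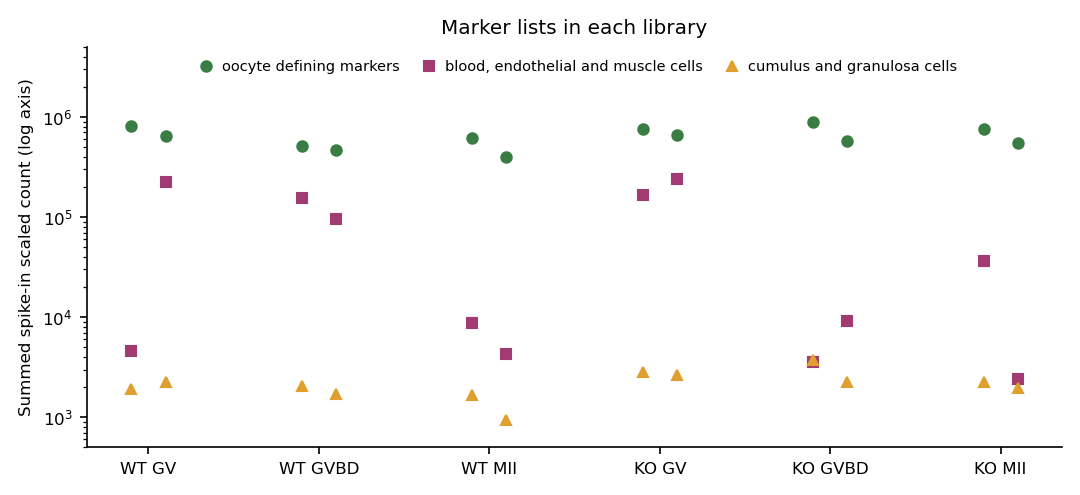
Summed spike-in scaled counts (log axis) of 10 oocyte markers (circles), 20 blood, endothelial and muscle cell markers (squares) and 18 cumulus and granulosa cell markers (triangles) in each library, with 2 libraries per group. The oocyte list lay between 466662 and 763847 in WT GVBD and KO MII. The blood, endothelial and muscle list stood at 153654 and 95730 in WT GVBD and at 36541 and 2392 in KO MII.

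Against WT GVBD, KO MII oocytes had mostly lower transcript levels. By edgeR's quasi-likelihood test with Benjamini-Hochberg adjustment (adjusted p under 0.05 and at least a 2-fold change), 1385 of 18972 genes tested were lower (7.3%) and 35 were higher (0.184%). The median log2 fold change over all genes was -0.82, and 8591 genes (45.3%) had an estimate more than 2-fold lower, whether or not they passed the test. Both KO MII libraries lay below both WT GVBD libraries for 8607 genes (45.4%) and above both for 1570 (8.28%). From the same WT GVBD libraries, WT MII showed 5208 of 19211 genes lower (27.1%), with a median of -1.11. Among the 1385 genes, 764 (55.2%) belonged to the genes that WT oocytes lowered from GV to MII, defined below. A further feature was that 509 (36.8%) had at most 3 counts in each KO MII library, against 3.23% of all genes tested. Such genes passed the expression filter only through their WT GVBD counts, so they could only come out lower. With at least 10 counts required in every library, 655 genes were lower and 7 higher.

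The size of this count rested on single libraries. It was 32 without WT GVBD replicate 1, 109 without WT GVBD replicate 2 and 6140 without KO MII replicate 1, and the count of higher genes went to 0, 0 and 102. The fits that called 0 higher genes held 72 and 64 genes higher at an unadjusted p under 0.05. Without KO MII replicate 2 there were 112 higher and 1277 lower genes. With TMM scaling, which sets the bulk of genes level between libraries in place of the ERCC RNA, 185 were higher and 587 lower, so that the higher share of calls was larger, and the median over all genes moved from -0.82 to -0.17. Values below are on the ERCC scale unless TMM is named. The median standard error of a log2 fold change was 1.02. For 0 genes did the 95% interval lie wholly within 2-fold of WT GVBD, against 384 with TMM scaling, 241 when all 12 libraries were fitted together and 31 with a replicate block, so placing a transcript at the WT GVBD level depended on the fit.

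To follow the transcripts that were lower in WT libraries at MII than at GV, a list of WT-cleared genes was taken from WT MII against WT GV. That contrast shares no library with the comparison of interest. The list held 5747 genes, of which 5533 were tested here. It included 8 of the 20 blood, endothelial and muscle markers, so it is not a list of oocyte transcripts alone. Those 20 markers summed to 4557 and 224856 scaled counts in WT GV and to 8780 and 4322 in WT MII. In KO MII 764 of them (13.8%) were called lower than in WT GVBD and 3 were called higher, beside the 7.3% and 0.184% of all genes. Their median log2 fold change was -1.68, and 4085 (73.8%) were estimated more than 2-fold lower. Among the 12131 genes that were tested in WT but were not WT-cleared, 381 (3.14%) were called lower and the median was -0.37. The WT-cleared genes were therefore lower in KO MII than the rest, yet 333 (6.02%) had an estimate at or above WT GVBD.

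WT-cleared genes stood at different levels in the 2 KO MII libraries. The median level of WT-cleared genes relative to the WT GVBD mean, on the ERCC scale, was -1.08 (quartiles -1.94 and -0.36) in KO MII replicate 1 and -2.66 (quartiles -3.88 and -1.72) in replicate 2. In WT MII, whose libraries helped to choose the list, it was -2.24 and -2.81, and in KO GVBD it was 0.5 and 0.15. KO MII replicate 2 thus lay at the WT MII values and replicate 1 between them and WT GVBD. On the TMM scale the medians were -0.89 and -1.45 in KO MII against -1.77 and -1.63 in WT MII, so the gap between the KO MII libraries was smaller on that scale. The medians of all genes tested were -0.29 and -1.53 in KO MII on the ERCC scale and -0.1 and -0.31 on the TMM scale. The 2 KO MII libraries thus differed over all genes too, and whether they differed in clearance was not tested.

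**Figure D2:**
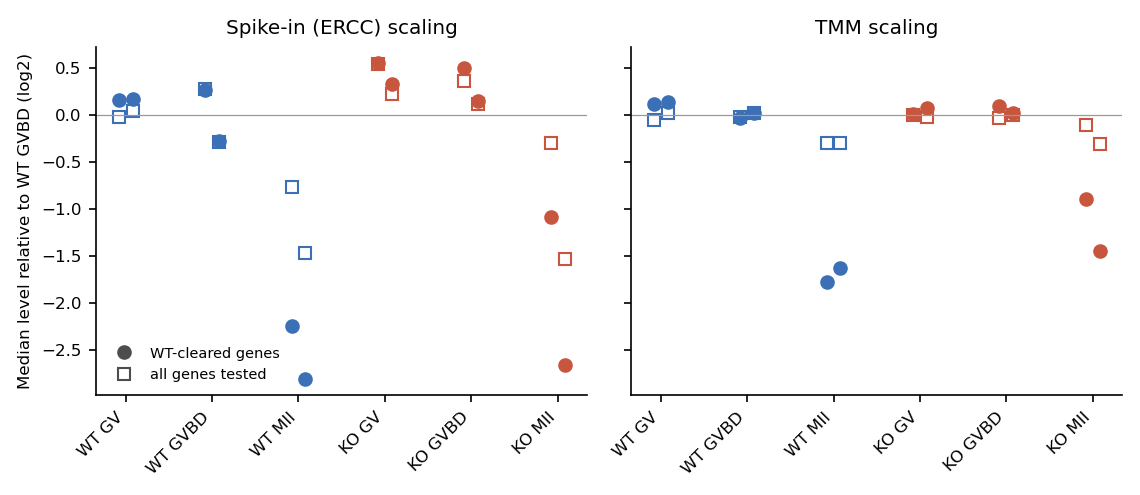
Median log2 level relative to the mean of the WT GVBD libraries in each of 12 libraries, for 5533 WT-cleared genes (filled circles) and all 18972 genes tested (open squares), on the ERCC scale (left) and the TMM scale (right). The KO MII circles lie at -1.08 and -2.66 on the left and at -0.89 and -1.45 on the right.

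Counted by library, 579 WT-cleared genes (10.5%) stayed above a level 2-fold under WT GVBD in both KO MII libraries and 2832 (51.2%) were below it in both. A further 2056 (37.2%) were above it in replicate 1 only and 66 (1.19%) in replicate 2 only. Of all genes tested, 35.5% were above it in both libraries and 29.6% below it in both. This is a description of 2 libraries and carries no test.

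The deeper the estimated fall of a transcript from WT GV to WT MII, the lower was its median in KO MII. Where the WT log2 change was below -5 (533 genes), the median in KO MII against WT GVBD was -2.94 and 203 genes (38.1%) were called lower. For WT falls between -3 and -2 (2558 genes) the median was -1.63 and 7.7% were called, and for falls between -1 and 0 (5481 genes) it was -0.31 and 1.99% were called. The order was the same in each KO MII library, from -2.14 in the deepest class to 0.62 in the class that had not fallen in replicate 1 and from -4.35 to -0.13 in replicate 2. Even in the deepest class 30 of 533 genes (5.63%) stayed above a level 2-fold under WT GVBD in both libraries.

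**Figure D3:**
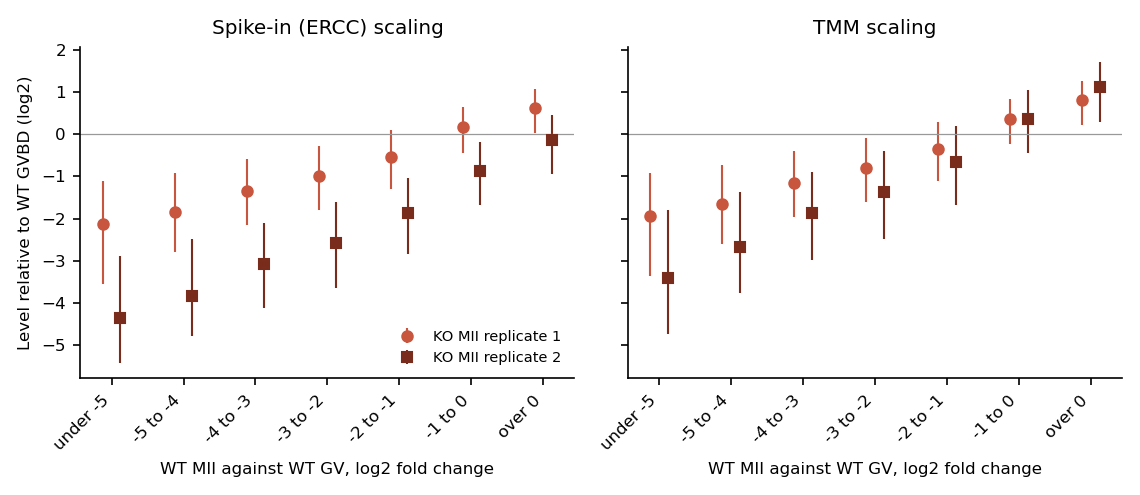
Level in each KO MII library relative to WT GVBD (log2) for genes grouped by their log2 fold change from WT GV to WT MII, on the ERCC scale (left) and the TMM scale (right). Points are medians and bars the quartiles over genes. In the deepest class of 533 genes the ERCC medians were -2.14 in replicate 1 and -4.35 in replicate 2.

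The transcripts nearest to WT GVBD were sought among the WT-cleared genes as the 10 whose 95% interval reached least far from 0, which favours abundant genes. They were *Ooep*, *Dppa5a*, *Sec61g*, *Tmsb10*, *Tbca*, *Pomp*, *Eif3k*, *Pcbd2*, *Med28* and *Zp3*, with log2 fold changes from -0.1 to 0.08 and intervals that reached no further than -1.51 or 1.51. The WT MII libraries helped to choose these genes as WT-cleared, and nearness of KO MII to WT GVBD chose among them. Values lower in WT MII than in KO MII or WT GVBD were thus partly set by the choice. For these genes, p-values that involve WT MII are a description and no independent support. *Zp3* (chromosome 5, 135980099 to 135988624, GRCm38) encodes the zona pellucida glycoprotein that binds sperm. It had 23764 and 20538 scaled counts in WT GVBD, 32881 and 14089 in KO MII and 8062 and 4469 in WT MII. The KO MII values lay on both sides of WT GVBD, with a log2 fold change of 0.08 (95% interval -1.34 to 1.51), while WT MII was lower than WT GVBD by a log2 change of -1.82 ± 0.63 (SE, n = 2 per group, edgeR adjusted p = 0.0171). The difference between KO MII and WT MII, 1.91 ± 0.71, did not pass the adjusted threshold (edgeR adjusted p = 0.263).

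*Dppa5a* (chromosome 9, 78367052 to 78368177), an RNA-binding protein gene of germ cells and pluripotent cells, had 92596 and 76108 scaled counts in WT GVBD and 103915 and 62097 in KO MII, against 22095 and 12900 in WT MII. Here the direct test did pass, with KO MII above WT MII by a log2 change of 2.25 ± 0.63 (edgeR adjusted p = 0.0465). The same WT MII libraries had helped to choose the gene. This call was not kept with a replicate block, which called 0 genes higher. *Tmsb10*, which encodes the actin-binding thymosin beta 10, had 46311 and 38050 in WT GVBD, 43570 and 35946 in KO MII and 10052 and 6775 in WT MII. *Pomp*, the chaperone of proteasome assembly, had 49199 and 31057 in WT GVBD and 38164 and 36507 in KO MII, and 13426 and 9496 in WT MII. For both genes the KO MII libraries lay above both WT MII libraries, but the differences of 2.24 and 1.7 missed the threshold (edgeR adjusted p = 0.0921 and 0.311).

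*Ooep*, a member of the subcortical maternal complex, showed a different course. It was WT-cleared because WT GV was high, at 397713 and 273244, and WT GVBD had already come down to 139139 and 105228. KO MII stood at 155222 and 89114 and WT MII at 115975 and 78662, which differed from WT GVBD by -0.33 ± 0.55 (edgeR adjusted p = 0.724). *Eif3k*, a subunit of the translation factor eIF3, likewise changed by only -0.57 in WT MII against WT GVBD (edgeR adjusted p = 0.534).

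Of 18 genes that the study followed, some of them chosen on these samples, 1 was called lower in KO MII (*Alkbh5*) and 0 higher by edgeR (0 also at an unadjusted p under 0.05 and by DESeq2), and the median was -1.04. *Esrrb*, a nuclear receptor gene of oocytes and pluripotent cells, had 4335 and 5118 scaled counts in WT GVBD, 8499 and 2357 in KO MII and 1177 and 1015 in WT MII. *Uchl1*, a deubiquitinating enzyme gene, had 6230 and 5138 in WT GVBD and 7297 and 3113 in KO MII. *Birc5*, which encodes the passenger complex subunit survivin, had 30690 and 21583 in WT GVBD and 27711 and 19548 in KO MII. Their log2 fold changes in KO MII against WT GVBD were 0.20, -0.13 and -0.15 and none passed the test. In WT MII *Esrrb* was lower by -2.11 and *Uchl1* by -1.9 (edgeR adjusted p = 0.00895 and 0.0183), and the change of *Birc5*, -1.44, did not pass (edgeR adjusted p = 0.0631). The direct differences between KO MII and WT MII were 2.31 for *Esrrb*, 1.78 for *Uchl1* and 1.29 for *Birc5*, and none passed (edgeR adjusted p = 0.209, 0.495 and 0.743).

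KO MII against WT MII tests whether a transcript differed between the genotypes at the same time in culture, and the WT GVBD values beside it show whether KO MII lay towards WT GVBD or away from it. It called 88 of 17566 genes higher (0.501%) and 53 lower (0.302%). Without WT MII replicate 1 the higher count was 3, without WT MII replicate 2 it was 0 (with 192 genes higher at an unadjusted p under 0.05) and without KO MII replicate 2 it was 419, while DESeq2 gave 260. No higher call of this comparison, for any gene named in this report, was thus kept in all of these fits. With a replicate block 0 genes were higher. The ribosomal protein list held 7 of the higher genes, *Rpl5*, *Rpl22l1*, *Rpl30*, *Rpl39*, *Rps13*, *Rps27* and *Rps29*. The list of nuclear genes of oxidative phosphorylation held 5, *Atp5j*, *Atp5j2*, *Cox7b*, *Cox7c* and *Ndufc1*, and the proteasome list held *Psmb4* and *Psmb7*. The hemoglobin genes *Hba-a1*, *Hba-a2*, *Hbb-bs* and *Hbb-bt* were called higher too, and their counts came almost wholly from KO MII replicate 1, where *Hba-a1* had 11494 scaled counts against 7.9 in replicate 2. Among the lower genes were *Alkbh5*, the cardiac muscle genes *Tnnt2*, *Actc1*, *Ankrd1* and *Myh6*, and *mt-Atp6*. For the cardiac genes KO MII was away from WT GVBD, since both WT groups had counts and KO MII had few or none.

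*Atp5j2*, a subunit gene of ATP synthase, had the values 89011 and 70888 in WT GVBD, 56129 and 14231 in KO MII and 2737 and 3030 in WT MII. KO MII was higher than WT MII by a log2 change of 3.61 ± 0.74 (edgeR adjusted p = 0.000485) and differed from WT GVBD by -1.18 ± 0.69, which did not pass (edgeR adjusted p = 0.345). All 4 KO MII and WT GVBD values lay above the WT MII values, and both KO MII values lay below WT GVBD. *Rpl39* had 43556 and 33609 in WT GVBD, 21762 and 9327 in KO MII and 1949 and 1578 in WT MII. *Rpl5* had 60179 and 44515 in WT GVBD, 33589 and 13754 in KO MII and 3659 and 2720 in WT MII. Both encode proteins of the large ribosomal subunit and both stood between the WT stages, with differences from WT MII of 3.14 ± 0.78 and 2.89 ± 0.74 (edgeR adjusted p = 0.0125 and 0.0175).

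*Cox7c* and *Rps29* had values at WT GVBD or above it. *Cox7c*, a small subunit gene of cytochrome c oxidase, had 4589 and 2627 scaled counts in WT GVBD, 7632 and 4039 in KO MII and 559 and 615 in WT MII. *Rps29*, of the small ribosomal subunit, had 5725 and 3119 in WT GVBD, 6743 and 7016 in KO MII and 782 and 868 in WT MII. Their KO MII values overlapped with or exceeded WT GVBD (log2 fold changes 0.69 and 0.64) and were above WT MII by 3.31 ± 0.85 and 3.06 ± 0.83 (edgeR adjusted p = 0.0186 and 0.0346). By contrast *Psmb7*, a catalytic subunit gene of the proteasome, had 28728 and 28518 in WT GVBD but 9166 and 2156 in KO MII and 726 and 441 in WT MII, a difference from WT GVBD of -2.34 ± 0.78 that missed the threshold (edgeR adjusted p = 0.0515).

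*Fgf8* encodes a growth factor that oocytes secrete to cumulus cells. Of the list of zona pellucida and secreted factor genes, it was the only member called higher in KO MII than in WT MII. It had 113 and 109.8 scaled counts in WT GVBD, 49 and 25.1 in KO MII and 0 in both WT MII libraries. These values are low, and both KO MII libraries lay between the WT stages. With WT MII at 0, *Fgf8* was tested only through KO MII and could only come out higher there. The fitted fold against a group at 0 is not quoted, since it depends on a prior count.

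**Figure D4:**
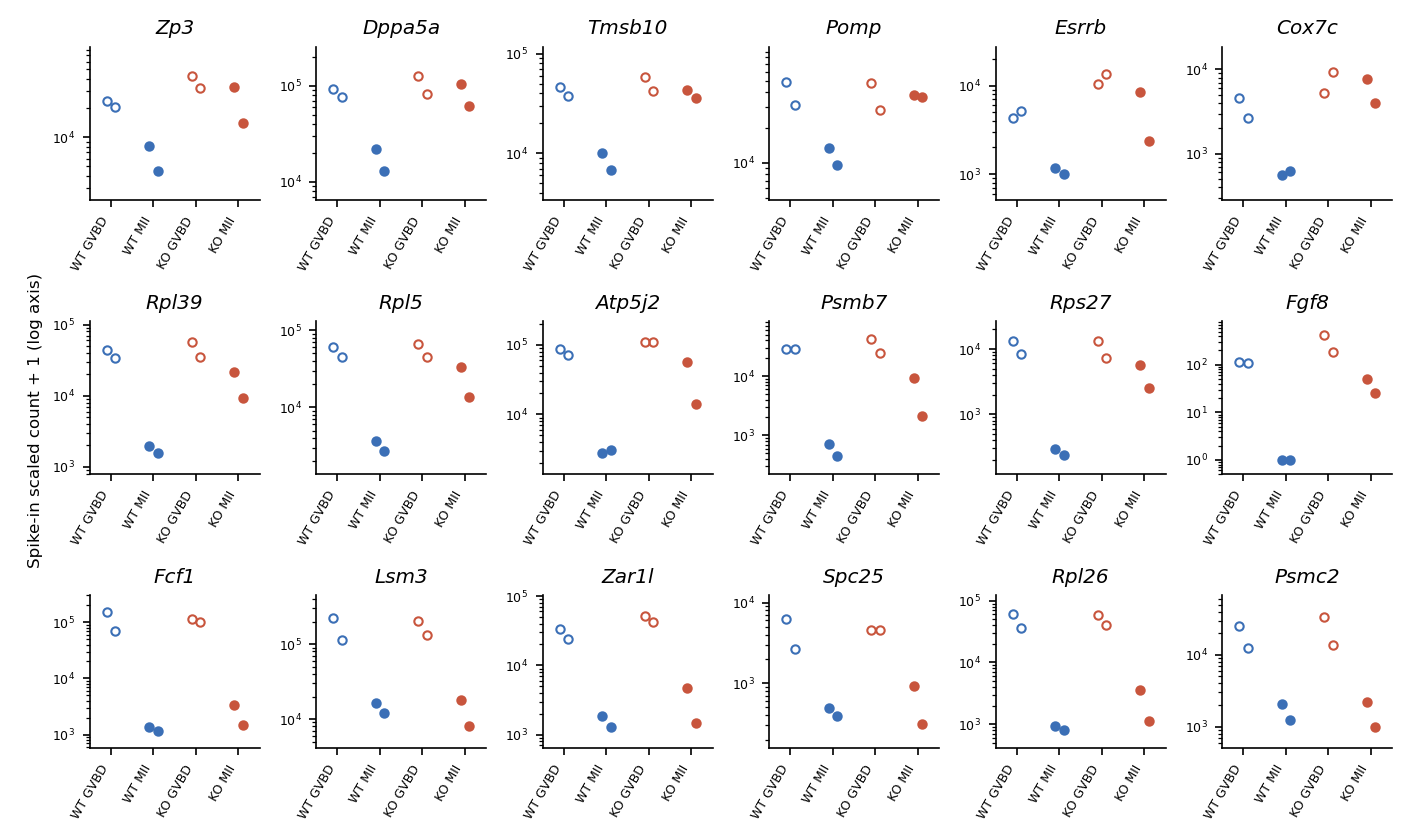
Spike-in scaled counts plus 1 (log axis) of 18 genes in WT GVBD and KO GVBD (open circles) and WT MII and KO MII (filled circles), with WT in blue and KO in red and 1 circle per library. In the top row KO MII lies near WT GVBD, in the middle row between WT GVBD and WT MII, and in the bottom row at or near WT MII.

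Other transcripts had left the WT GVBD level in both KO MII libraries. The 10 called WT-cleared genes with the highest mean scaled count in WT GVBD, chosen after the values were seen, were *Fbxw15*, *Lsm3*, *Enox1*, *Cycs*, *Plac8*, *Gtsf1*, *Fcf1*, *Setd4*, *Txndc9* and *Ipmk*. *Fcf1* (chromosome 12, 84970897 to 84983303), a gene for processing of small-subunit rRNA, had 152238 and 68778 scaled counts in WT GVBD and 3312 and 1461 in KO MII, next to 1360 and 1144 in WT MII. It was lower than WT GVBD by a log2 change of -5.53 ± 0.82 (edgeR adjusted p = 1.6e-05) and differed from WT MII by 0.93 ± 0.82, which did not pass (95% interval -0.67 to 2.53). *Lsm3*, of the LSm ring that serves splicing and decapping, had 227026 and 113867 in WT GVBD, 17881 and 8150 in KO MII and 16442 and 11930 in WT MII, a change from WT GVBD of -3.71 ± 0.72 (edgeR adjusted p = 0.000767). In KO GVBD these genes differed from WT GVBD by -0.04 ± 0.50 and -0.01 ± 0.50 on the log2 scale.

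The other 8 genes had log2 fold changes between -4.04 for *Setd4* and -2.34 for *Ipmk*. *Cycs*, which encodes cytochrome c, had 230620 and 94093 scaled counts in WT GVBD and 27374 and 11467 in KO MII. *Gtsf1*, a gametocyte factor of the piRNA pathway, had 166089 and 80366 in WT GVBD, 25835 and 6229.5 in KO MII and 6244 and 4240 in WT MII. None of the 10 passed the test of KO MII against WT MII. For *Ipmk* and *Gtsf1* the differences from WT MII were the largest of the 10, at 1.94 ± 0.73 and 1.61 ± 0.72 (edgeR adjusted p = 0.279 and 0.494). Without WT GVBD replicate 1 the calls of 9 of the 10 were lost and that of *Fcf1* was kept.

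Of the 71 called genes examined singly here, 11 were still called without WT GVBD replicate 1, 20 without WT GVBD replicate 2, 48 without KO MII replicate 2 and 71 without KO MII replicate 1, and none changed sign. The 11 were *Alkbh5*, *Fcf1* and the keratin and heart muscle genes *Krt14*, *Krt5*, *Krt1*, *Krt16*, *Tnnt2*, *Actc1*, *Myl3*, *Ankrd1* and *Myh6*, so every call named here for a ribosomal, oxidative phosphorylation, proteasome, initiation factor, histone or tubulin gene against WT GVBD was lost without that library.

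Gene lists were then described one by one, by their counts and medians beside the -0.82 of all genes. Ribosomal protein transcripts were the lowest of the oocyte lists. Of 82 tested, 15 were called lower (against 7.3% of all genes) and 0 higher by edgeR (0 also at an unadjusted p under 0.05 and by DESeq2, and 1 with TMM scaling), with a median of -1.69 in KO MII and -2.74 in WT MII. By library the list stood at -0.96 and -3.03 in KO MII and at -2.4 and -3.19 in WT MII on the ERCC scale. On the TMM scale it stood at -0.76 and -1.78 in KO MII and at -1.91 and -1.97 in WT MII. *Rpl26* had 61985 and 36377 scaled counts in WT GVBD and 3510 and 1101 in KO MII, and *Rps27a* had 20697 and 16822 in WT GVBD and 1175 and 453 in KO MII. Their log2 fold changes were -4.42 ± 0.82 and -4.53 ± 0.87 (edgeR adjusted p = 0.000501 and 0.000721). The list thus held members near WT MII, such as these, beside members such as *Rpl39* and *Rps29* that the direct test called above WT MII. Those direct calls depended on single WT MII libraries. One called member, *Rpl3l*, is the muscle form of *Rpl3*. It was at 0 in both KO MII libraries, so it could only come out lower, by at least 12.4-fold. Ribosomal protein genes have many processed copies in the genome, so their unique read counts are uncertain.

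Nuclear genes of oxidative phosphorylation had a median of -0.96 in KO MII and -1.99 in WT MII. By library the list stood at -0.36 and -1.82 in KO MII and at -1.72 and -2.33 in WT MII. KO MII replicate 2 thus lay within the WT MII values and replicate 1 above them. Called lower were 5 of 83 (6.02%, below the 7.3% of all genes), *Cox5a*, *Ndufa9*, *Ndufs3*, *Uqcrc1* and *Ndufb10*. *Ndufb10*, of complex I, had 1892 and 924.5 scaled counts in WT GVBD, 121 and 26.5 in KO MII and 86.1 and 70.8 in WT MII, a log2 change of -4.26 ± 1.02 (edgeR adjusted p = 0.0069). *Ndufa9* had 21173 and 17524 in WT GVBD, 5160 and 1042 in KO MII and 1006 and 752 in WT MII. *Ndufb10* differed from WT MII by -0.09 ± 1.02, while *Ndufc1* of the same complex was above it by 3.94 ± 1.10 (edgeR adjusted p = 0.045). In all, 27 of the 83 members stayed above a level 2-fold under WT GVBD in both KO MII libraries and 21 were below it in both. These counts are near the shares of all genes tested, 35.5% above it and 29.6% below it in both libraries.

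Proteasome subunits had a median of -1.05 in KO MII and -1.48 in WT MII. By library they stood at -0.45 and -2.03 in KO MII and at -1.09 and -1.81 in WT MII. Called lower were 6 of 39 (15.4%, against 7.3% of all genes). *Psmc2*, a base ATPase gene, had 25239 and 12629.5 scaled counts in WT GVBD, 2186 and 1003 in KO MII and 2060 and 1254 in WT MII, a change of -3.57 ± 0.83 (edgeR adjusted p = 0.00547). *Psma6*, *Psmb1* and *Psma3* changed by -3.19, -3.16 and -3.02, and *Psmc2* and these 3 differed from WT MII by between -0.25 and 0.39, with no call. The remaining called members, *Psmb8* and *Psmb9*, encode immunoproteasome subunits, which immune cells use. They were not WT-cleared, and they were at 13.2 and 51.8 (*Psmb8*) and 6.6 and 15.4 (*Psmb9*) in KO GVBD. There the whole list of blood, endothelial and muscle markers summed to 3545 and 9260. Of its 2156 and 8406 raw counts *Pecam1* gave 1568 and 2935, so these are not sums of blood cell markers alone. The source of the *Psmb8* and *Psmb9* transcripts was not tested.

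Translation initiation factors had a median of -1.07 in KO MII and -1.01 in WT MII. By library they stood at -0.56 and -2.09 in KO MII and at -0.69 and -1.31 in WT MII. Called lower were 5 of 50 (10%, near the 7.3% of all genes), *Eif1ax*, *Eif2b5*, *Eif3h*, *Eif3m* and *Eif4e2*. *Eif3h* had 3182 and 1890 scaled counts in WT GVBD and 325 and 117 in KO MII, in contrast to *Eif3k* of the same complex, which had 28094 and 21829 in WT GVBD and 29204 and 17802 in KO MII. In WT MII *Eif3h* changed by -4.18 and *Eif3k* by -0.57. Histone genes had a median of -1.08, close to the -1.1 of WT MII. Of 33 tested, 3 were lower (9.09%, near the share of all genes), *H2afv*, *Hist1h1c* and *Hist1h4i*. *Hist1h1c*, a linker histone gene, was already at 21.4 and 93.6 in KO GVBD, against 703 and 332 in WT GVBD. The oocyte linker histone gene *H1foo* had 39592 and 29317 in WT GVBD, 88453 and 58299 in KO MII and 105391 and 79125 in WT MII, and its change in KO MII was not called. Of 16 tubulin genes 3 were lower (18.8%), *Tubb4b*, the platelet tubulin *Tubb1* and *Tuba8*, and the median was -0.76. With TMM scaling these 3 calls were lost, 1 tubulin gene was higher and the median was -0.04.

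**Figure D5:**
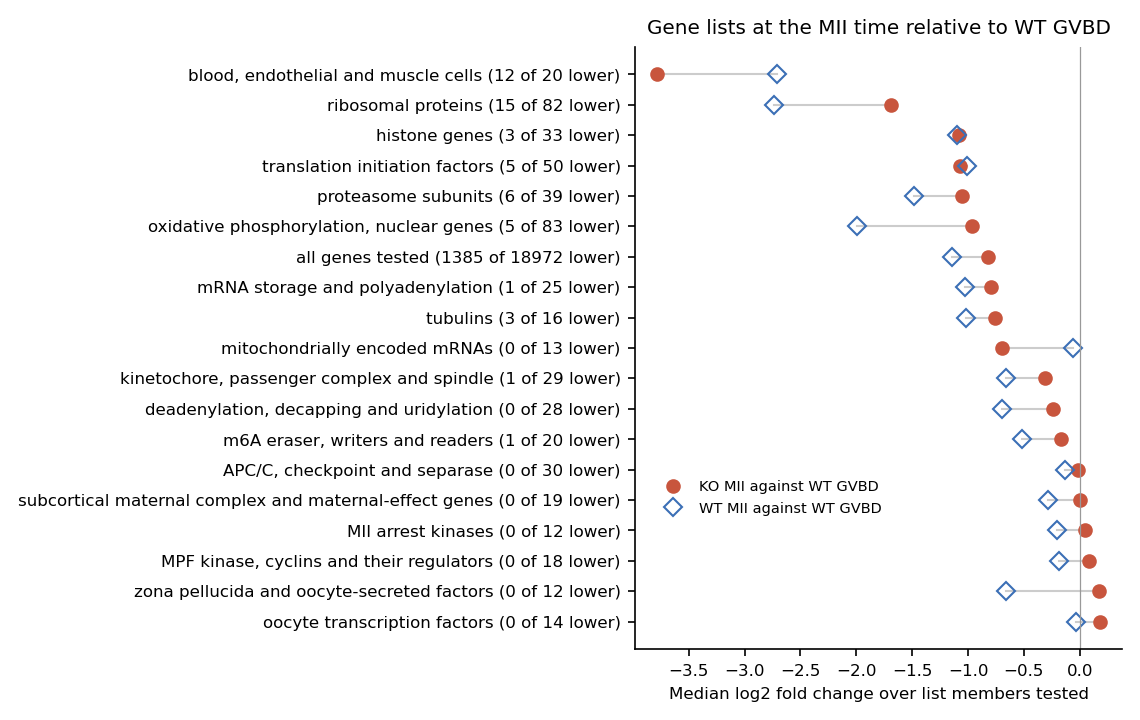
Median log2 fold change of each gene list in KO MII against WT GVBD (filled circles) and in WT MII against WT GVBD (open diamonds), on the ERCC scale, with the number of members called lower in KO MII. Both comparisons use the same WT GVBD libraries. Ribosomal protein genes stand at -1.69 and -2.74 and oxidative phosphorylation genes at -0.96 and -1.99, while oocyte transcription factors stand at 0.18 and -0.03.

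Transcripts that bind and store maternal mRNA were mostly uncalled. Of 25 genes for storage and polyadenylation 1 was lower (4%, against 7.3% of all genes), *Zar1l*, a relative of the maternal mRNA-binding factor *Zar1*. It had 33424 and 24187 scaled counts in WT GVBD, 51728 and 42771 in KO GVBD, 4740 and 1488 in KO MII and 1885 and 1277 in WT MII, a change of -3.21 ± 0.80 (edgeR adjusted p = 0.00957). *Zar1* itself had 16555 and 11298 in WT GVBD and 12737 and 2562 in KO MII, the latter pair far apart. *Ybx2*, the oocyte mRNA-packaging protein MSY2, had 2418 and 1203 in WT GVBD, 1064 and 302 in KO MII and 267 and 137 in WT MII. It was lower in WT MII by -3.16 ± 0.73 (edgeR adjusted p = 0.000203), and in KO MII its change of -1.41 ± 0.87 did not pass. Nor did the difference between KO MII and WT MII, 1.76 ± 0.91 (edgeR adjusted p = 0.703).

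Decay factors were then read in the same way. Of 28 genes for deadenylation, decapping and uridylation none was called by edgeR on the ERCC scale or by DESeq2 (2 were higher by edgeR with TMM scaling), with 1 higher and 4 lower at an unadjusted p under 0.05 and a median of -0.24, which became 0.45 on the TMM scale. *Btg4* had 125283 and 107151 scaled counts in WT GVBD and 158870 and 179320 in KO MII. *Cnot7*, a catalytic subunit of CCR4-NOT, had 35164 and 24320 in WT GVBD and 32962 and 29333 in KO MII. *Cnot9* had 5701 and 4117 in WT GVBD, 14913 and 16914 in KO MII and 9101 and 5278 in WT MII, a change of 1.7 ± 0.76 that did not pass (edgeR adjusted p = 0.182).

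Cell cycle lists had medians near 0 against WT GVBD in both genotypes on the ERCC scale, but the KO MII libraries lay on both sides of it. The median in KO MII was 0.08 for 18 genes of MPF, the CDK1-cyclin B kinase, and its regulators. It was -0.02 for 30 genes of the APC/C, checkpoint and separase and 0.05 for 12 genes of the MII arrest. The last list held kinase genes together with *Fbxo43* and *Ppp3ca*, which are not kinase genes. On the TMM scale the medians were 0.91, 0.65 and 0.80 in the same order. By KO MII library the ERCC medians were 0.41 and -0.25 for MPF, 0.49 and -0.8 for APC/C and 0.42 and -0.36 for MII arrest genes. No member of these lists was called by edgeR on the ERCC scale, while with TMM scaling it called 2 APC/C and 3 MII arrest genes higher. At an unadjusted p under 0.05 there were 1 lower MPF gene, 1 higher APC/C gene and 1 MII arrest gene in each direction. DESeq2 called 1, 1 and 1. *Ccnb1* had 41940 and 42693 scaled counts in WT GVBD, 60212 and 51633 in KO MII and 58478 and 38240 in WT MII. *Cdc20*, the APC/C activator, had 1299 and 846 in WT GVBD, 4356 and 3788 in KO MII and 2625 and 1842 in WT MII, a change of 1.92 ± 0.83 (edgeR adjusted p = 0.158). *Mos*, whose product starts the arrest kinase cascade, had 3086 and 4552 in WT GVBD, 13507 and 8652 in KO MII and 11641 and 8402 in WT MII. *Arpp19*, an inhibitor of the phosphatase that opposes MPF, was the lowest of the list, from 20783 and 8766 to 3540 and 2100, at -2.39 ± 0.80 (edgeR adjusted p = 0.0526).

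Among 29 kinetochore, passenger complex and spindle genes the median was -0.31, or 0.44 on the TMM scale, and 1 was lower (3.45%, against 7.3% of all genes). This was *Spc25*, of the NDC80 complex, with 6202 and 2652 scaled counts in WT GVBD, 910 and 311 in KO MII and 493 and 388 in WT MII. Its change was -2.86 ± 0.88 (edgeR adjusted p = 0.033).

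The lists that define the oocyte were not called at all. Zona pellucida and secreted factor genes (12 tested, median 0.17), oocyte transcription factors (14, median 0.18) and the subcortical maternal complex with other maternal-effect genes (19, median 0) had 0 members called by edgeR and DESeq2, and 0, 1 and 0 members at an unadjusted p under 0.05. On the TMM scale the medians of these lists were 0.89, 1.0 and 0.64, with 0 members called. By KO MII library the ERCC medians were 0.45 and -0.36, 0.19 and -0.24, and 0.53 and -0.56. *Gdf9* had 46753 and 64549 scaled counts in WT GVBD and 114403 and 61945 in KO MII. *Bmp15* had 49869 and 43497 in WT GVBD and 72161 and 44533 in KO MII. *Zp2* had 83878 and 63856 in WT GVBD, 59404 and 29092 in KO MII and 15924 and 7804 in WT MII. WT MII was lower for *Zp2* by -2.64 ± 0.61 (edgeR adjusted p = 0.000234), and the change in KO MII was -0.74 ± 0.67 without a call. The difference between KO MII and WT MII, 1.90 ± 0.66, did not pass (edgeR adjusted p = 0.198). *Figla*, a transcription factor gene that drives zona gene expression, had 1393 and 1051 in WT GVBD, 812 and 115 in KO MII and 51 and 29.4 in WT MII, and its difference from WT MII of 3.53 ± 1.03 missed the threshold (edgeR adjusted p = 0.0668).

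The m6A list had a median of -0.17 over 20 genes, 0.60 on the TMM scale, and *Alkbh5* was its 1 call, at -6.99 ± 1.03 (edgeR adjusted p = 1.6e-05). *Igf2bp2* had 5204 and 2082 scaled counts in WT GVBD and 6074 and 2675 in KO MII, and *Ythdf2* had 5414 and 2156 in WT GVBD and 3952 and 3400 in KO MII. Mitochondrially encoded mRNAs had a median of -0.70 in KO MII, 0.40 on the TMM scale, and -0.06 in WT MII, with 0 of 13 called by edgeR and DESeq2 and 0 at an unadjusted p under 0.05. *mt-Atp6*, which overlaps its neighbour genes, had 3323 and 1200 in WT GVBD, 604 and 966 in KO MII and 26487 and 1855 in WT MII, where replicate 1 stood apart.

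Few transcripts rose above WT GVBD. Of the 35 higher genes 22 (62.9%) had at most 3 counts in each WT GVBD library. Those 22 were tested only through their KO MII counts and could only come out higher. Of the 35 genes, 3 met the rule for naming. *Cpne1*, a calcium-dependent membrane-binding protein gene, had 40.2 and 83.2 scaled counts in WT GVBD, 865 and 697 in KO MII and 239 and 458 in WT MII. It was higher by 3.65 ± 1.02 (edgeR adjusted p = 0.0199). *Hmgn3*, a nucleosome-binding protein gene, had 102 and 58.4 in WT GVBD, 587 and 1327 in KO MII, 1011 and 746 in KO GVBD and 117 and 66 in WT MII, so it was high in KO at both stages. *Trav9n-2*, annotated as a T cell receptor segment, had 76.4 and 119 in WT GVBD and 981 and 573 in KO MII, with 579 and 415 in WT MII. All 3 calls were lost without WT GVBD replicate 1 and also without WT GVBD replicate 2.

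By contrast the 10 called genes with the largest fold decrease and at least median expression were all keratin or heart muscle genes, *Krt14*, *Krt5*, *Krt1*, *Krt16*, *Krt6b*, *Krt6a*, *Tnnt2*, *Actc1*, *Myl3* and *Ankrd1*. All had 0 counts in both KO MII libraries, so they were tested only through WT GVBD and could only come out lower. *Krt14*, of basal epidermis, had 1714 and 590 scaled counts in WT GVBD and 0 in WT MII and KO GVBD as well, and was at least 447-fold lower in KO MII. *Tnnt2*, the heart troponin T gene, had 484 and 864 in WT GVBD, 803 and 224 in WT MII, 0 and 1097 in KO GVBD and was at least 262-fold lower in KO MII. These bounds set a count of 0 at 3 counts per library and cover counting error only. *Krt14*, *Krt5*, *Krt1*, *Krt16* and *Krt6b* had counts in the WT GVBD libraries only. *Tnnt2*, *Actc1*, *Myl3* and *Ankrd1* were at 0 in KO GVBD replicate 1 too, and at 5.9 or less in WT GV replicate 1. Where these transcripts came from was not tested.

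As for features the comparison did not use, protein-coding genes called lower had shorter transcripts. By GENCODE M21 the median transcript length was 1978 bases for 986 called genes and 2877 for 14194 tested genes, and the median length of the 3′ UTR was 463 against 879 bases. WT-cleared genes as a whole were short as well, at 2147 and 573 bases. Within them, those above a level 2-fold under WT GVBD in both KO MII libraries had medians of 1914 and 464 bases, and those below it in both had 2005 and 517 bases. No test was made of these lengths. Pseudogenes made up 14% of the former and 8.83% of the latter.

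Across the whole transcriptome each KO MII library was more like WT MII than WT GVBD. Over the 13273 genes that averaged 50 counts or more, Pearson's r of log2 TMM-scaled counts was 0.865 and 0.887 between KO MII replicate 1 and the WT MII libraries and 0.812 and 0.84 with the WT GVBD libraries. For KO MII replicate 2 it was 0.868 and 0.857 with WT MII and 0.761 and 0.749 with WT GVBD. Replicate 1 was thus nearer to WT GVBD than replicate 2 was, but this was not particular to WT GVBD. With the WT GV libraries r was 0.842 and 0.846 for replicate 1 and 0.77 and 0.741 for replicate 2. The KO MII libraries correlated with each other at 0.89 and the WT GVBD libraries at 0.921. These are correlations across genes, which are not independent replicates.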

How the data were processed

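Polyadenylated RNA of 12 libraries (6 groups of 2) had been sequenced, and the authors deposited raw read counts for 56691 genes and 92 ERCC sequences. Per the labels, reads were processed with cutadapt 1.9, HISAT2 2.0.4, StringTie 1.3.4d, DESeq2 and edgeR on mm10. The annotation release and the step that made whole counts are not given in the sources used here, and the extraction described in the labels differs from the single-tube protocol in the study's text. A symbol was given for 52073 genes (91.9%).

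Genes passing filterByExpr were tested with edgeR 4.0.16 (R 4.3.3; glmQLFit and glmQLFTest), with library sizes proportional to ERCC counts. A gene was called at a Benjamini-Hochberg adjusted p under 0.05 and at least a 2-fold change. Errors of log2 fold changes are standard errors and intervals are 95%. WT-cleared genes were those called lower in WT MII against WT GV. Levels relative to WT GVBD are log2(scaled count + 1). A whole group at 0 was set at 3 counts per library for a bound. The alternatives used TMM and median-of-ratios scaling, DESeq2 1.42.0, other filters, all 12 libraries, the replicate number as a block and the omission of single libraries. The study calls the 2 libraries of a group independent biological samples, but the sources used here do not give the animals behind each pool, and p-values measure the spread between these libraries. Counting intervals cover counting error only. Scripts were tested on simulated data.

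Genes were named by 4 rules, as key genes of meiosis and mRNA decay, as the 10 highest and 10 lowest called genes with at least median expression and no overlap (only 3 higher genes qualified), as the 10 WT-cleared genes nearest to WT GVBD, and as the extremes of each list. Called list members and the most abundant called WT-cleared genes were added after their values were seen. The groups and lists were chosen with earlier results of these data known. Positions and lengths are from GENCODE M21 on GRCm38.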

Additional observations from a re-analysis of the deposited data

How the results depend on the processing

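None of the 71 called genes examined singly changed sign under any setting that gave it a value. With TMM scaling the medians of several gene lists changed sign, from -0.24 to 0.45 for deadenylation, from -0.31 to 0.44 for kinetochore, from -0.17 to 0.60 for m6A, from -0.70 to 0.40 for mitochondrially encoded, from -0.02 to 0.65 for APC/C and from -0.60 to 0.10 for cumulus and granulosa cell genes. Against the 35 higher and 1385 lower genes of KO MII against WT GVBD, TMM scaling gave 185 and 587, median-of-ratios scaling 232 and 703, at least 10 counts per library 7 and 655, and all 12 libraries 98 higher, and DESeq2 65 higher. Leaving out 1 library gave 0 to 112 higher and 32 to 6140 lower. Of the 764 WT-cleared genes called lower, with the list derived under the same setting, TMM gave 424, median-of-ratios scaling 491, DESeq2 1178 and all 12 libraries 1357, and leaving out 1 library gave 9 to 3278. Genes with an interval within 2-fold of WT GVBD numbered 0, but 384 with TMM and 241 with all 12 libraries.

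For WT MII against WT GVBD, TMM gave 1902 higher (131) and 3014 lower (5208), and leaving out 1 library 43 to 107 and 1763 to 5254. For KO MII against WT MII (88 higher, 53 lower), TMM gave 23 and 20, DESeq2 260 and 86 and all 12 libraries 190 and 29, and leaving out 1 library 0 to 419 and 8 to 323. The balance of these calls turned to 86 higher and 323 lower without KO MII replicate 1. For KO GVBD against WT GVBD (157 higher, 337 lower), TMM gave 2 and 27, DESeq2 476 higher and all 12 libraries 1 and 11, and leaving out 1 library 0 to 208 and 5 to 605. The cause of these moves was not tested.

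The labels number replicates 1 and 2 in every group, and same-numbered libraries of KO MII and WT GVBD deviated with a correlation of -0.2. It was -0.19 for KO MII and WT MII, 0.21 for WT MII and WT GVBD and 0.12 for KO GVBD and WT GVBD. With 2 pairs and no label for what a number shares, the numbers were not taken to pair the libraries. With a replicate block the counts were 5 higher and 602 lower, 498 WT-cleared genes lower and 31 genes within 2-fold of WT GVBD. The block gave 259 higher genes for WT MII against WT GVBD, 0 higher (1903 at an unadjusted p under 0.05, edgeR) and 4 lower for KO MII against WT MII, and 55 higher and 159 lower for KO GVBD against WT GVBD. The crossed pairing, chosen after seeing the data, gave 1 higher, 69 lower and 19 WT-cleared lower. With 2 libraries per group and a median standard error of 1.02, changes of 2-fold were mostly not detectable.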
